A study of Mus musculus with 16 samples.

Results

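The 44 genes described here encode the complement and coagulation proteins of plasma. They were taken from a deposited expression table of 20601 genes by a fixed list of gene symbols; the list was drawn up with earlier results of these data known. All 44 were listed, and 43 of them were among the 13202 genes with enough signal to test. The single member below that limit was Cfb (complement factor B). By their known source, 38 members, of which 37 could be tested, were treated as made by hepatocytes. The others were C1qa, C1qb and C1qc, which encode the 3 chains of C1q and are made mainly by macrophages, Cfp (properdin, from myeloid cells), Cfd (factor D, from adipocytes) and F3 (tissue factor, from many cell types).

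Complement is a cascade of plasma proteins that recognises microbes, immune complexes and dying cells. The classical pathway starts with C1q, the lectin pathway with mannose-binding lectins and the alternative pathway with spontaneous activation of C3; all meet at C3 and can end in the membrane attack complex built from C5b and the later components. Coagulation is a parallel cascade of proteases that turns fibrinogen into fibrin and is dissolved again by plasmin. Hepatocytes secrete most of the circulating proteins of both systems, whereas C1q is a product of tissue macrophages such as the Kupffer cells of the liver.

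RNA was measured by sequencing of polyadenylated transcripts in liver tumors and in nontumor liver of 8 mice. Hepatocellular carcinoma had been induced in every mouse by hydrodynamic delivery of 19 µg of plasmid for human N-Ras, 1 µg for human c-Myc and 2 µg for Sleeping Beauty transposase (SB), the enzyme that inserts the transgenes into the genome of transfected hepatocytes, so the liver is a mixture of cells with and without them. The ketogenic diet (KD; 0.1% carbohydrate, 89.5% fat and 10.4% protein) or a normal diet (ND) was given for 4 weeks, starting 4 weeks after delivery, and tissue was taken at 8 weeks. The groups were KD tumor, KD nontumor liver, ND tumor and ND nontumor liver, with 4 libraries each. Nontumor liver came from mice that had received the same plasmids, so no group is plasmid-free liver. Strain, sex and age are not given in the sources used here, nor whether equal numbers mark the same mouse. Because both tissues were taken from the same 8 mice, libraries of 1 mouse may resemble each other, and the p-values describe only how these particular libraries scatter.

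Levels are given as rescaled TPM, that is, the authors' TPM (transcript abundance relative to gene length and library total) divided by 1 scaling factor per library. The rescaling was needed because the listed genes of ND nontumor 4 summed to 7.38% of the nominal TPM total, against 49.96% to 88.4% in the other 15 libraries. Between 3518966 (ND nontumor 4) and 14074042 (KD tumor 3) reads were recovered per library, and the 44 genes took 2.05% to 3.71% of them. KD nontumor 3 and 4 stood apart. Their listed genes summed to 66.8% and 73.1% of the nominal TPM total and their depths were 6132073 and 5676970 reads, against 86.6% and 88.4% and 11039834 and 10968126 reads in KD nontumor 1 and 2. Results that rest on these libraries are given with and without them. Hepatocyte markers were abundant everywhere: the summed level of 10 such genes, Alb (albumin) among them, ranged over 157800 to 219600 rescaled TPM in KD tumors, against 38560 to 123800 in KD nontumor liver, and over 84740 to 149800 in ND tumors, against 66860 to 130900 in ND nontumor liver. The KD tumors thus lay above all KD nontumor libraries in this sum, while the ND groups overlapped.

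The 44 genes covered a wide range of levels. Fgb, the fibrinogen beta chain, had the highest median over all 16 libraries (1760.1 rescaled TPM), followed by Vtn (1594), Fgg (1500.2) and Kng1 (1392); the values of neighbours in this order overlapped widely between libraries. C3, the hub of complement, followed at 842 rescaled TPM. The lowest were Cfd (9.64), F3 (3.57) and Cfb (0.586). In all, 41 of the 44 genes reached 1 rescaled TPM in every library. Cfb had 0 to 32 recovered reads per library; 79.5% of its exon bases are shared in the annotation with Gm20547, a transcript on the same strand that spans Cfb and C2 and was not in the table, so the level of Cfb, and of C2 (42.8% shared), is uncertain.

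On KD the share of these genes that differed between tumor and nontumor liver was near that of all tested genes; on ND more of them fell than rose. Here and below, a gene is said to have risen or fallen when its Benjamini-Hochberg adjusted p from limma, over all 13202 tested genes, was under 0.05. On KD, 6 of 43 members were higher and 9 lower in tumor than in nontumor liver, with 33.0% of all tested genes called, 16.6% higher and 16.4% lower; with 1 library left out, 5 to 9 were higher and 4 to 10 lower. On ND, 4 were higher and 14 lower, with 29.0% of all tested genes called, 14.6% higher and 14.3% lower. The median log2 fold change of the members was 0.07 on KD and -0.24 on ND, beside 0.01 and -0.005 for all tested genes. The groups did not overlap for 14 of 43 members on KD, 6 above and 8 below, with 33.5% of all tested genes, 16.1% above and 17.4% below. On ND they did not overlap for 19, 6 above and 13 below, with 27.8% of all tested genes, 14% above and 13.8% below. In bulk tissue, fewer cells of a type and less RNA per cell cannot be told apart.

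Kng1 and Kng2 rose in tumors on both diets, and Mbl1, Cfd, C6, C8a, C8b and Klkb1 fell on both. C1qb, Cfi, Fgb and Cpb2 passed the test as higher on KD alone, and C4b and F11 on ND alone. C1s1, Cfp and F7 passed as lower on KD alone, and Mbl2, Masp1, Masp2, C9, F9, Pros1, F13b and Vtn on ND alone. The remaining 18 tested members, which include C3, Hc, F2, F10, F12, Plg and the fibrinogen chains Fga and Fgg, passed in neither comparison. Passing on 1 diet alone is not a difference between the diets, which was tested separately and is given further on.

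**Figure D1:**
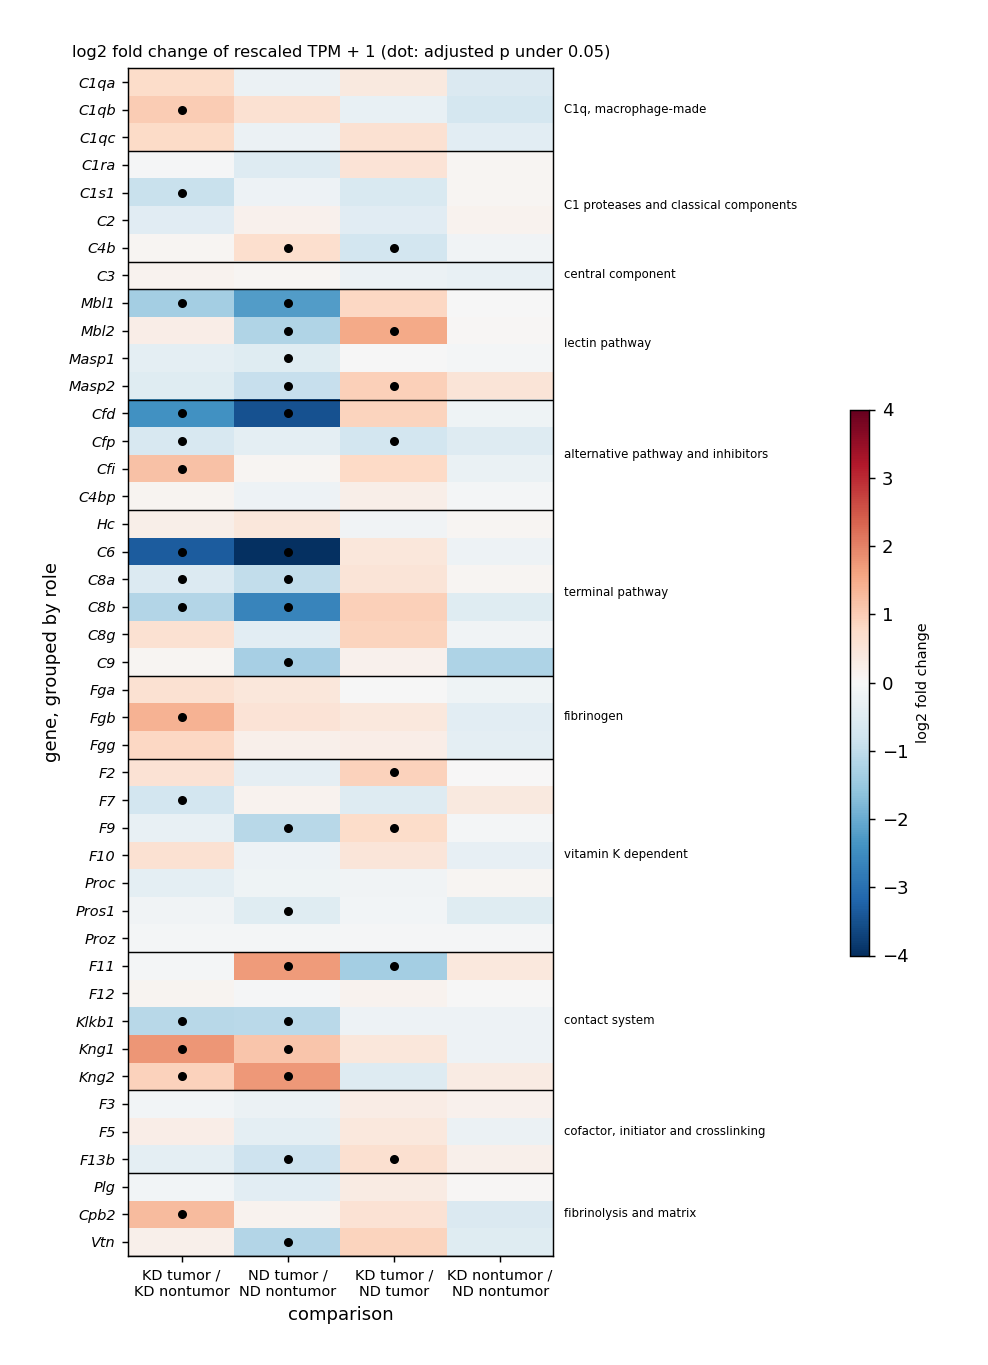
Log2 fold changes of the 43 tested genes (rows, grouped by role) in 4 comparisons (columns), on the scale of log2(rescaled TPM + 1); red is higher and blue lower in the first-named group, and a dot marks a limma adjusted p under 0.05. C6 shows the lowest values in both tumor comparisons (-3.33 on KD and -3.99 on ND), and the column of KD nontumor against ND nontumor holds 0 dots.

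Many of these calls were lost on the deposited scale or without KD nontumor 3 and 4. On the TPM as deposited, which leave ND nontumor 4 at its own scale, the median log2 fold change of all genes was -0.26 on KD and 0.42 on ND, 2 members passed on KD (C6 and Cfd) and 5 on ND (C6, C8b, Cfd, F11 and Kng2). All genes called numbered 1111 on KD and 1418 on ND, against 4361 and 3823 after rescaling. The spread in that fit comes from all 16 libraries, so ND nontumor 4 enters it on KD too. Leaving out KD nontumor 3 and 4 kept 5 of the 15 calls on KD (C6, Mbl1, Klkb1, Kng1 and Kng2). That run left 2 libraries in the KD nontumor group, and all genes called on KD also fell below 4361, as given further on. Whether member calls were lost through the smaller group or through these 2 libraries was not tested. Calls stood when any single library was left out, except where the account of a gene names one.

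The change of largest size among the 43 members was that of C6, one of the late complement genes. C6, whose protein joins C5b to start the membrane attack complex, lies at chr15:4727175-4814967 (GRCm38). It had 13.1, 9.55, 11.6 and 22.8 rescaled TPM in the 4 KD tumors, against 103, 83.3, 219 and 232 in KD nontumor liver. In ND tumors its values were 8.32, 14.9, 7.68 and 8.88, against 205, 194, 194 and 102 in ND nontumor liver. No tumor reached even the lowest nontumor library of its diet, and the lowest of those on ND was ND nontumor 4. C6 fell, with log2 fold changes of -3.33 ± 0.35 on KD (SE, n = 4 each; limma adjusted p = 6.34e-06) and -3.99 ± 0.35 on ND (limma adjusted p = 7.66e-07), and it passed under each alternative run, with KD nontumor 3 and 4 left out included (-2.69).

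C8a and C8b, which encode the alpha and beta chains of C8, are neighbours on chromosome 4, 11130 bases apart on opposite strands. C8b had 14.8, 17.02, 38.7 and 46.7 rescaled TPM in KD tumors, against 84.8, 68.7, 31.5 and 71.4 in KD nontumor liver. In ND tumors it had 10.1, 25.6, 6.88 and 15.2, against 66.6, 109, 125 and 58.2 in ND nontumor liver. The ND groups were apart, whereas KD nontumor 3 lay within the range of the KD tumors. The log2 fold change was -1.18 ± 0.43 on KD (limma adjusted p = 0.0448) and -2.63 ± 0.43 on ND (limma adjusted p = 2.67e-04). C8a also fell, with log2 fold changes of -0.56 ± 0.19 on KD (limma adjusted p = 0.0348) and -0.99 ± 0.19 on ND (limma adjusted p = 0.00111). The KD calls of both genes were lost without KD nontumor 1, KD nontumor 4, KD tumor 1 or KD tumor 2, that of C8b also without KD nontumor 2, and that of C8a also without KD nontumor 3 or KD tumor 3; without KD nontumor 3 and 4 together the adjusted p from limma was 0.0545 for C8b and 0.205 for C8a.

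The other late components did not all follow. C8g, the gamma chain of C8, had log2 fold changes of 0.61 on KD and -0.41 on ND and did not pass. C9, the pore-forming subunit, had 158, 148, 94.5 and 140.1 rescaled TPM in ND tumors, against 255, 401, 469.7 and 252 in ND nontumor liver, with no overlap. It fell on ND (-1.32 ± 0.27; limma adjusted p = 0.00173). On KD it had 92.3, 176, 164 and 184 in tumors, against 153, 142, 105 and 173 in nontumor liver, a log2 fold change of 0.08 ± 0.27 (limma adjusted p = 0.845). The level of C9 in KD nontumor liver was thus close to that in both tumor groups, and its diet contrast in nontumor liver was -1.23 ± 0.27 (limma adjusted p = 0.114), which did not pass although the groups did not overlap. Hc, which encodes C5, the source of C5b, had 374 ± 38.3 rescaled TPM in KD tumors and 327 ± 99.1 in KD nontumor liver, and 419 ± 78.9 in ND tumors and 299.5 ± 23.6 in ND nontumor liver (SD, n = 4 each), and did not pass.

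Of the 4 lectin pathway genes, Mbl1 fell on both diets and the other 3 on ND alone. Mbl1 and Mbl2 encode mannose-binding lectins A and C, which bind sugars on microbial surfaces; Masp1 and Masp2 encode the proteases they carry, of which MASP-2 cleaves C4 and C2. Mbl1 had 61.5, 93.2, 69.99 and 77.1 rescaled TPM in KD tumors, against 316, 261, 107 and 155 in KD nontumor liver. In ND tumors it had 55.2, 62.2, 24.1 and 34.4, against 121, 256, 286 and 168 in ND nontumor liver. Every tumor lay below every nontumor library of its diet, with log2 fold changes of -1.36 ± 0.36 on KD (limma adjusted p = 0.0087) and -2.23 ± 0.36 on ND (limma adjusted p = 2.51e-04).

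Mbl2 had 124, 131, 43.95 and 75.5 rescaled TPM in ND tumors, against 133, 276, 269.6 and 156 in ND nontumor liver. The ND tumors all lay lower (-1.20 ± 0.41; limma adjusted p = 0.0377), but the call was lost without ND nontumor 2, ND nontumor 3, ND tumor 3 or ND tumor 4. On KD the values were 186, 246, 248 and 319 in tumors, against 405, 259, 97.8 and 168 in nontumor liver, with a log2 fold change of 0.27 ± 0.41 (limma adjusted p = 0.643). Masp2 had 22.4, 32.5, 19.2 and 32.5 rescaled TPM in ND tumors, against 39.5, 56.1, 55.99 and 48.8 in ND nontumor liver, and fell there (-0.91 ± 0.20; limma adjusted p = 0.00282). On KD it had 42.7, 42.4, 59.2 and 64.8 in tumors, against 78.3, 64.95, 70.5 and 73.2 in nontumor liver; the groups were just apart, yet the change of -0.47 ± 0.20 did not pass (limma adjusted p = 0.0811). Masp2 shares 54.9% of its exon bases with Tardbp on the opposite strand, and the sources used here do not say whether counting used strand. Masp1 fell slightly on ND (-0.47 ± 0.16; limma adjusted p = 0.0322), a call that was lost without ND nontumor 1, 2 or 3 or ND tumor 1, 3 or 4, and whose sign turned on the deposited scale (0.12).

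Among the classical and alternative pathway genes made by hepatocytes, most did not pass. C3 had 775 ± 99.1 rescaled TPM in KD tumors and 749 ± 323 in KD nontumor liver, and 928 ± 253 in ND tumors and 874 ± 210.4 in ND nontumor liver (SD, n = 4 each). C1ra and C2, which encode the proteases C1r and C2, and C4bp, whose product is a cofactor in the breakdown of C4b, also did not pass in either tumor comparison. C4b, which encodes the C4 that C1s and MASP-2 cleave, had 1243, 850.1, 825 and 852 rescaled TPM in ND tumors, against 539.6, 526, 566 and 742 in ND nontumor liver. All ND tumors were above all ND nontumor libraries, with ND tumor 1 far above the rest (0.66 ± 0.20; limma adjusted p = 0.0194); the call was lost without ND tumor 1 or ND nontumor 2. On KD, C4b had 542, 575, 549 and 548 rescaled TPM in tumors, against 499, 507, 515 and 594 in nontumor liver, which overlapped. C4b and its copy C4a share 34.6% of the 50-base windows of C4b transcripts, so the split of reads between them is uncertain; C4a itself had log2 fold changes of -3.22 ± 0.45 on KD (limma adjusted p = 9.13e-05) and -1.07 ± 0.45 on ND (limma adjusted p = 0.0889).

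C1s1, which encodes the protease C1s, fell on KD. Its values were 174, 129, 132 and 203 rescaled TPM in KD tumors, against 231, 249.8, 347 and 352 in KD nontumor liver, with no overlap (-0.88 ± 0.21; limma adjusted p = 0.00398). The 2 highest nontumor values were those of KD nontumor 3 and 4, without which the change was -0.62 (limma adjusted p = 0.0686). Cfi encodes factor I, the protease that inactivates C3b and C4b. It had 457, 412, 467 and 413 rescaled TPM in KD tumors, against 282, 310.2, 101 and 163 in KD nontumor liver. All KD tumors were higher (1.16 ± 0.31; limma adjusted p = 0.00864), and without KD nontumor 3 and 4, the 2 lowest libraries, the change was 0.55 (limma adjusted p = 0.165).

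Both alternative pathway genes treated here as made outside hepatocytes fell, Cfd on both diets and Cfp on KD. Which cells made their RNA in these samples was not tested. Cfd, whose protease cleaves factor B, had 2.77, 9.39, 6.32 and 5.69 rescaled TPM in KD tumors, against 15.6, 36.6, 9.89 and 240.2 in KD nontumor liver. In ND tumors it had 0, 4.93, 1.94 and 8.08, against 17.4, 76.7, 66.7 and 25.5 in ND nontumor liver. The groups did not overlap on either diet, and KD nontumor 4 was far above all other libraries. The log2 fold change was -2.43 ± 0.82 on KD (limma adjusted p = 0.0318) and -3.50 ± 0.82 on ND (limma adjusted p = 0.00444). The KD call was lost without KD nontumor 2, KD nontumor 4, KD tumor 1, KD tumor 3 or KD tumor 4, and with a pseudocount of 0.1, with no filter and in the count model. Of the adipocyte markers, Adipoq, Plin1 and Retn did not exceed 0.493 rescaled TPM in any library, while Cidec, which fat-laden hepatocytes also express, averaged 117 ± 57.5 rescaled TPM in KD tumors and 41.9 ± 22.2 in KD nontumor liver, and 32.3 ± 12.2 in ND tumors and 14.6 ± 7.03 in ND nontumor liver (SD, n = 4 each). Cfp, which encodes the stabiliser of the alternative C3 convertase, had 42.7, 43.9, 31.2 and 26.4 rescaled TPM in KD tumors, against 67.9, 47.2, 58.3 and 49.98 in KD nontumor liver (-0.63 ± 0.22; limma adjusted p = 0.0376), a call that was lost without KD nontumor 1, 3 or 4, KD tumor 3 or KD tumor 4, and without KD nontumor 3 and 4 together. Of 9 neutrophil markers 5 were tested, and 0 of these passed on either diet; the summed level of all 9, of which 2 to 5 were at 0 in each library of the KD groups, was 38.5 to 93.9 rescaled TPM in KD tumors, against 9.77 to 53.4 in KD nontumor liver, and their part in the Cfp values was not tested.

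**Figure D2:**
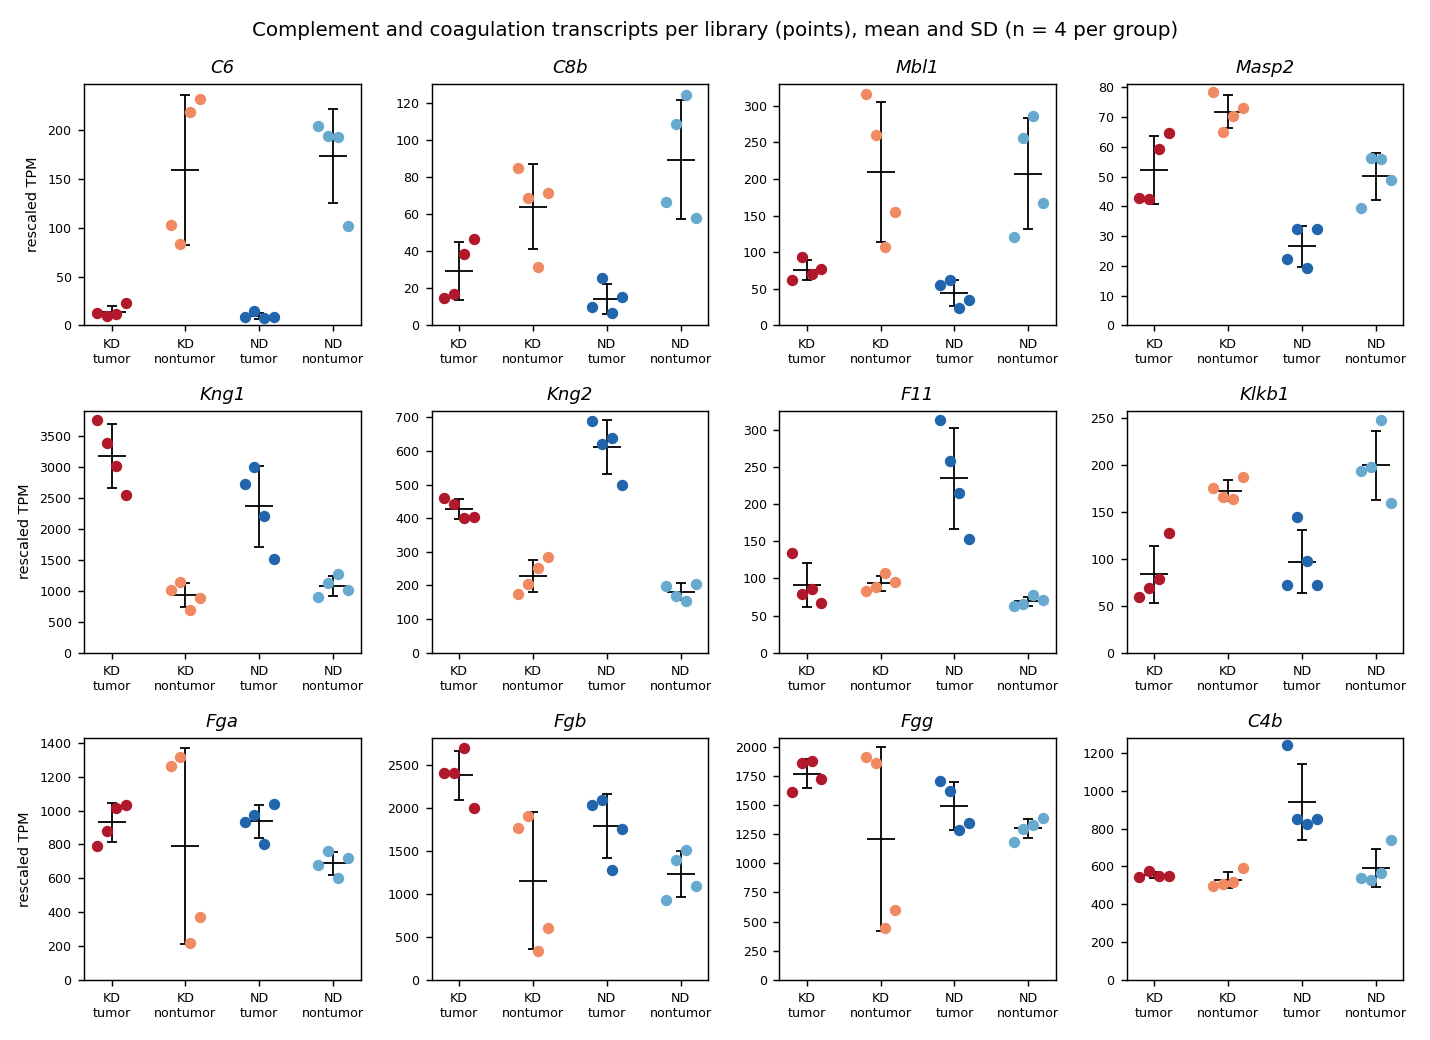
Rescaled TPM of 12 genes in every library (points), with the mean (bar) and SD (whiskers) of each group of 4; groups run from KD tumor to ND nontumor. C6 is at most 22.8 rescaled TPM in all 8 tumors and at least 83.3 in all 8 nontumor libraries, F11 is highest in ND tumors (153 to 313), and Fga, Fgb and Fgg show KD nontumor 3 and 4 far below KD nontumor 1 and 2.

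Within the contact system the kininogen genes rose and Klkb1 fell, on both diets. Its kininogens are scaffolds for prekallikrein and factor XI and the source of bradykinin. Kng1, at chr16:23057865-23082078 (GRCm38), had 3747, 3386, 3003 and 2539 rescaled TPM in KD tumors, against 1016, 1139, 691 and 888 in KD nontumor liver. In ND tumors it had 2726, 2996, 2206 and 1513, against 897, 1118, 1272 and 1013 in ND nontumor liver. Every tumor exceeded every nontumor library, with log2 fold changes of 1.77 ± 0.27 on KD (limma adjusted p = 1.87e-04) and 1.10 ± 0.27 on ND (limma adjusted p = 0.00624). Kng2, its neighbour 28382 bases away on the other strand, had 461, 443, 401 and 403 rescaled TPM in KD tumors, against 174, 203, 252 and 284 in KD nontumor liver. In ND tumors Kng2 had 689.7, 621, 639 and 500.4, against 199, 169.6, 153 and 206 in ND nontumor liver. It rose by 0.92 ± 0.19 on KD (limma adjusted p = 0.00186) and by 1.75 ± 0.19 on ND (limma adjusted p = 7.21e-06), again with no overlap. The copies share 17.2% of the 50-base windows of Kng1 transcripts and 19.4% of those of Kng2, so reads from these stretches could be assigned to either.

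F11 and Klkb1 encode factor XI and prekallikrein, related proteases that lie 4657 bases apart on the same strand of chromosome 8, at chr8:45241174-45262031 and chr8:45266689-45294859 (GRCm38). F11 had 134, 78.7, 85.7 and 66.5 rescaled TPM in KD tumors, against 83.4, 88.6, 107 and 95.6 in KD nontumor liver, which overlapped (-0.08 ± 0.23; limma adjusted p = 0.811). In ND tumors F11 had 313, 258, 215 and 153, against 63.02, 65.3, 77.2 and 70.7 in ND nontumor liver. Each ND tumor was above all 12 other libraries, and the rise over ND nontumor liver was 1.71 ± 0.23 (limma adjusted p = 4.53e-05).

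Klkb1 fell in tumors on both diets. It had 59.6, 68.4, 78.2 and 128 rescaled TPM in KD tumors, against 175, 165, 163 and 187 in KD nontumor liver (-1.10 ± 0.25; limma adjusted p = 0.00331). In ND tumors it had 72.3, 144, 98.2 and 72.6, against 194, 197, 248 and 159 in ND nontumor liver (-1.08 ± 0.25; limma adjusted p = 0.00395). The neighbouring pair thus moved in opposite directions in ND tumors, and 43.2% of the exon bases of Klkb1 are shared with Gm45753, a same-strand transcript that was not in the table. F12, which encodes factor XII, the protease that starts contact activation, had 548 ± 32.3 rescaled TPM in KD tumors and 513 ± 51.8 in KD nontumor liver, and 508 ± 122 in ND tumors and 521 ± 76.6 in ND nontumor liver (SD, n = 4 each), and did not pass.

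The 250 bases before the start of F11 are shown because it was the only member whose tumor change passed the test of a difference between the diets, given further on; they are a RefSeq window of build GRCm38.p6 on the minus strand, at chr8:45262032-45262281, written 5′ to 3′. Capitals mark matches on either strand to 3 motifs: GTTAAT, of the homeodomain type, TTGCNNAA, of the C/EBP type, and CTGGGAA, of the interleukin-6 response type. The window holds 1 match, to TTGCNNAA on the reverse strand, 10 to 17 bases before the start.
F11: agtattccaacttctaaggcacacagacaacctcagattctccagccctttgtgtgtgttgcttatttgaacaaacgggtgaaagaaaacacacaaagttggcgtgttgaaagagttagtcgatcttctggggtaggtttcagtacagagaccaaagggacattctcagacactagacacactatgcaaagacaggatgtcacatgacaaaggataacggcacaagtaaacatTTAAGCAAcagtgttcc

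Of the 3 fibrinogen chains, Fgb rose in KD tumors, and the call rested on the libraries that stood apart. The alpha, beta and gamma chains are encoded by Fga, Fgb and Fgg, which lie in 1 cluster on chromosome 3, with 11026 bases between Fgg and Fga and 6513 between Fga and Fgb. Fgb had 2411, 2411, 2697 and 2005 rescaled TPM in KD tumors, against 1764, 1910.0, 336 and 603 in KD nontumor liver, with no overlap. Its change was 1.38 ± 0.44 (limma adjusted p = 0.0245), and 0.36 without KD nontumor 3 and 4 (limma adjusted p = 0.436); the call was also lost without KD nontumor 3, KD nontumor 4, KD tumor 2 or KD tumor 3 alone. Fga had 789, 878, 1017 and 1032 rescaled TPM in KD tumors, against 1262, 1318, 215 and 374 in KD nontumor liver. Fgg had 1616, 1862, 1876 and 1722 in KD tumors, against 1915, 1862, 447 and 601 in KD nontumor liver. All 3 chains were thus low together in KD nontumor 3 and 4, while in KD nontumor 1 and 2 Fga was above all 4 KD tumors and Fgg at the top of their range. This was not particular to fibrinogen. Vtn, C3, Cfi and Cpb2 were also lower in KD nontumor 3 and 4 than in KD nontumor 1 and 2, whereas Hc and C6 were higher. The hepatocyte marker sum was 38560 and 74260 rescaled TPM in KD nontumor 3 and 4, against 117100 and 123800 in KD nontumor 1 and 2. On ND the tumor changes were 0.44 ± 0.44 for Fga, 0.54 ± 0.44 for Fgb and 0.19 ± 0.39 for Fgg, and none passed.

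The windows before Fgb and Fgg are shown as examples from the fibrinogen cluster, whose 3 chains were low together in the same libraries. Other members were low there too, as given above. The window of Fga holds GTTAAT and TTGCNNAA and no CTGGGAA and is not shown. The windows of Fgb and Fgg are at chr3:83049864-83050113 on the minus strand and chr3:83007474-83007723 on the plus strand (RefSeq, GRCm38.p6), written 5′ to 3′ with matches to the motifs named above in capitals. Fgb holds all 3 motifs, CTGGGAA 85 to 91, TTGCNNAA 73 to 80 and GTTAAT, on the reverse strand, 24 to 29 bases before the start. Fgg holds CTGGGAA 7 to 13 bases before the start.
Fgb: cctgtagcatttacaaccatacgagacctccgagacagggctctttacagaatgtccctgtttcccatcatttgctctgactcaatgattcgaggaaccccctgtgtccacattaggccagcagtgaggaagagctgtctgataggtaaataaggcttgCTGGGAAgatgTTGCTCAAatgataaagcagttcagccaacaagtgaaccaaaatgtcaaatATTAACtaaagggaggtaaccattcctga
Fgg: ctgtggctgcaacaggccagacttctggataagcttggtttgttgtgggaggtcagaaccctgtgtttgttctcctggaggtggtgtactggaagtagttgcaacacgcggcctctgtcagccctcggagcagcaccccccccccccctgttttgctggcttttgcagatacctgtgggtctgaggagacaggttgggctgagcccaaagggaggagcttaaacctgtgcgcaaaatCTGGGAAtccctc

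Over all members with such a window (35 genes; 9 had none), GTTAAT was found before 11 (31.4%), against 6.43% of all 32851 windows of this length. TTGCNNAA was found before 9 (25.7%, against 9.56%) and CTGGGAA before 5 (14.3%, against 9.10%). The member shares count genes with a match in any of their windows, whereas the other shares count single windows. These are unlike measures, and the difference between them was not tested. No match in the 3 windows shown overlapped another. A match describes letters in a window and shows no binding. Of the 11 members with GTTAAT, C8a and C8b fell in tumors on both diets, Cfp on KD, and F13b and Vtn on ND. Fgb rose on KD, a call lost without KD nontumor 3 and 4, and C1ra, C4bp, Fga, Hc and Proz passed on neither diet.

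Of the vitamin K dependent genes, F9 and Pros1 fell on ND and F7 on KD. These are proteases and cofactors whose glutamate side chains are carboxylated so that they bind calcium and membranes. F9, which encodes factor IX, had 40.5, 49.99, 39.3 and 40.04 rescaled TPM in ND tumors, against 82.2, 118, 115 and 64.7 in ND nontumor liver, with no overlap, and fell (-1.11 ± 0.22; limma adjusted p = 0.0011). On KD, F9 had 71.8 ± 14.98 rescaled TPM in tumors and 87.7 ± 16.1 in nontumor liver (SD, n = 4 each; limma adjusted p = 0.32). Pros1, which encodes the anticoagulant protein S, fell on ND (-0.48 ± 0.16; limma adjusted p = 0.0332), but the call was lost without ND nontumor 1 or 2 or ND tumor 1, 2 or 4, and the sign turned on the deposited scale (0.08). F7, which encodes factor VII, the partner of tissue factor, had 66.4, 52.4, 79.9 and 88.9 rescaled TPM in KD tumors, against 86.7, 102, 161 and 135 in KD nontumor liver. These groups overlapped, and the call of -0.73 ± 0.26 (limma adjusted p = 0.0389) was lost without KD nontumor 3, KD nontumor 4 or KD tumor 1, 2 or 3, and without KD nontumor 3 and 4 together. F2 (prothrombin), F10 (factor X), Proc (protein C) and Proz (protein Z) did not pass in tumors against nontumor liver on either diet, with log2 fold changes between -0.40 and 0.61 on KD and between -0.35 and -0.09 on ND.

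The remaining coagulation members were F3, F5, F13b, Plg, Cpb2 and Vtn. F13b, which encodes the carrier subunit of the fibrin-crosslinking factor XIII, had 16.3, 31.8, 21.7 and 18.4 rescaled TPM in ND tumors, against 35.01, 49.5, 36.3 and 34.2 in ND nontumor liver, with no overlap (-0.81 ± 0.20; limma adjusted p = 0.00677). Vtn, which encodes vitronectin, a matrix protein that also restrains the membrane attack complex, had 859.6, 1071, 681 and 1090.2 in ND tumors, against 1539, 2551, 2706 and 1649 in ND nontumor liver (-1.17 ± 0.37; limma adjusted p = 0.0272); the call was lost without ND nontumor 2, ND nontumor 3, ND tumor 1 or ND tumor 3. Cpb2 encodes a carboxypeptidase that trims fibrin and slows its lysis. It had 207, 189.8, 216 and 255 rescaled TPM in KD tumors, against 134, 139, 44.2 and 75.3 in KD nontumor liver, and was higher in every tumor (1.27 ± 0.32; limma adjusted p = 0.00671), with 0.65 left without KD nontumor 3 and 4 (limma adjusted p = 0.136). Plg, which encodes plasminogen, the precursor of plasmin, F5, which encodes the cofactor of factor Xa, and F3, the initiator, did not pass on either diet; F3 was at 2.72 to 5.38 rescaled TPM in KD tumors and 3.10 to 9.15 in KD nontumor liver, and 0.965 to 5.87 in ND tumors and 3.17 to 4.26 in ND nontumor liver.

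Of the 3 C1q genes, 1 rose in KD tumors and 0 fell on either diet, whereas most Kupffer cell markers fell. Among all tested genes, 16.6% were higher and 16.4% lower on KD, and 14.6% higher and 14.3% lower on ND. With 3 genes, the C1q count cannot be set apart from these shares. C1qa, C1qb and C1qc lie next to each other on 1 strand of chromosome 4, with 2851 and 3616 bases between them. C1qb had 94.5, 90.6, 88.5 and 51.3 rescaled TPM in KD tumors, against 63.3, 41.8, 27.8 and 30.2 in KD nontumor liver; the groups overlapped through KD tumor 4 and KD nontumor 1. It rose by 1.01 ± 0.28 (limma adjusted p = 0.0103), with 0.60 left without KD nontumor 3 and 4 (limma adjusted p = 0.206). C1qa had 116, 89.3, 107 and 38.3 rescaled TPM in KD tumors, against 91.9, 64.6, 25.4 and 36.1 in KD nontumor liver (0.73 ± 0.38; limma adjusted p = 0.155). C1qc had 42.8, 44.7, 53.9 and 18.9 in KD tumors, against 36.1, 24.5, 16.01 and 14.7 in KD nontumor liver (0.78 ± 0.33; limma adjusted p = 0.0788). In all 3 genes KD tumor 4 was the lowest of the KD tumors. On ND, C1qb had 143, 79.3, 107 and 73.8 rescaled TPM in tumors, against 56.7, 77.9, 69.96 and 54.5 in nontumor liver (0.60 ± 0.28; limma adjusted p = 0.118), and C1qa and C1qc had log2 fold changes of -0.23 ± 0.38 and -0.24 ± 0.33; 0 of the 3 passed.

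Summed over the 3 genes, C1q was 108.5 to 254 rescaled TPM in KD tumors, against 69.3 to 191 in KD nontumor liver, and 149.5 to 267 in ND tumors, against 137 to 220.4 in ND nontumor liver. The summed level of 9 Kupffer cell markers was 32.9 to 64.5 in KD tumors, against 110.5 to 179 in KD nontumor liver, and 16.4 to 38.1 in ND tumors, against 208 to 293 in ND nontumor liver. Tumor and nontumor libraries thus overlapped in C1q but not in the Kupffer cell sum, on either diet. Among them Clec4f, a lectin found on Kupffer cells, fell, with log2 fold changes of -2.37 ± 0.27 on KD (limma adjusted p = 1.46e-05) and -4.09 ± 0.27 on ND (limma adjusted p = 4.77e-08), and 5 of 8 tested markers fell on KD (3 without KD nontumor 3 and 4) and 7 of 8 on ND. Beside these counts, 16.4% of all tested genes were lower on KD and 14.3% on ND. The ratio of the C1q sum to the Kupffer cell sum was 2.92 to 6.83 in KD tumors, against 0.505 to 1.19 in KD nontumor liver, and 4.81 to 16.3 in ND tumors, against 0.562 to 0.752 in ND nontumor liver. The summed level of 14 monocyte and macrophage markers was 894 to 2708 rescaled TPM in KD tumors, against 193 to 344 in KD nontumor liver, and 633 to 2214 in ND tumors, against 251.5 to 324 in ND nontumor liver. Both ratio and sum were higher in all 8 tumors than in any nontumor library. Of 13 tested markers, 6 rose and 1 fell on KD (2 and 1 without KD nontumor 3 and 4), and 6 rose and 2 fell on ND, with medians of 0.81 and 0.78 and 11 of 13 positive on each diet; on the deposited scale 2 rose and 1 fell on KD, and 4 rose and 1 fell on ND. The shares of all tested genes that were higher were 16.6% on KD and 14.6% on ND. Most of the sum in tumors was Spp1 (osteopontin), which tumor cells can also express, at 1222 ± 859 rescaled TPM in KD tumors and 127 ± 92.7 in KD nontumor liver, and 1149.5 ± 586 in ND tumors and 126 ± 31.9 in ND nontumor liver (SD, n = 4 each). Cd68, a marker shared by macrophages, had log2 fold changes of 0.29 ± 0.22 on KD and 0.24 ± 0.22 on ND and did not pass. What share of the C1q RNA came from either cell population was not tested.

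**Figure D3:**
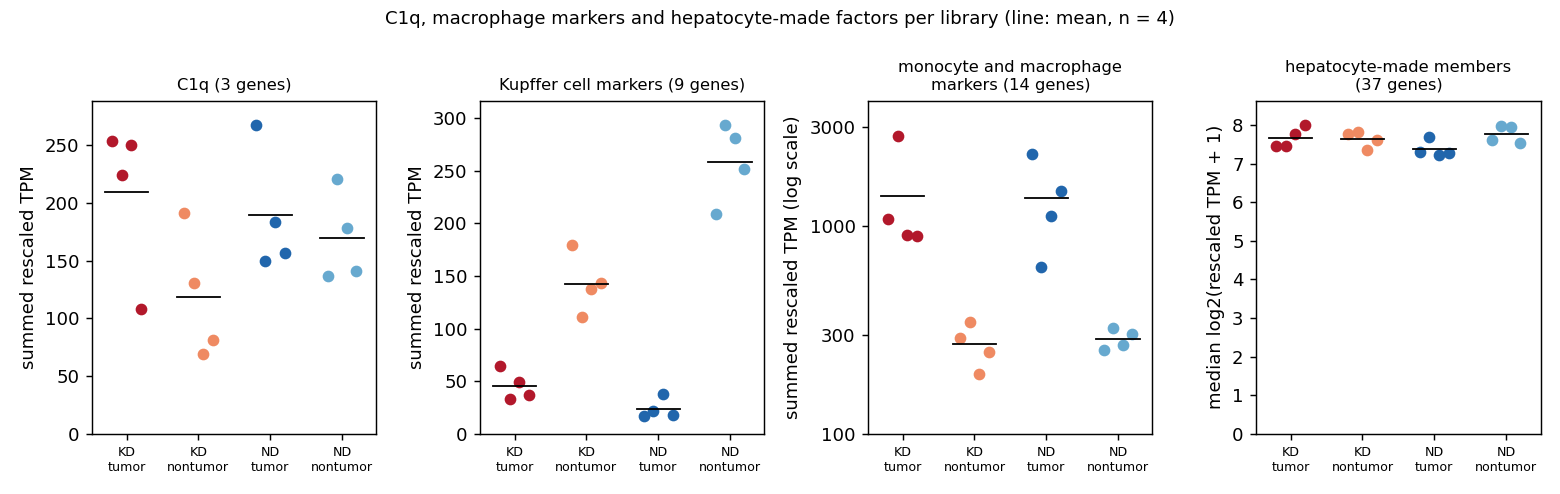
Per-library values (points) and group means (lines, n = 4) of summed rescaled TPM for C1q, for Kupffer cell markers and for monocyte and macrophage markers (log axis), and the median log2(rescaled TPM + 1) of the 37 tested hepatocyte-made members. C1q overlaps between tumor and nontumor on both diets, whereas the Kupffer cell sum is at most 64.5 in tumors and at least 110.5 in nontumor liver.

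Set beside C1q, the hepatocyte-made members had no common direction in KD tumors, and in ND tumors more fell than rose. Of 37 tested, 5 were higher and 7 lower on KD, with 16.6% of all tested genes higher and 16.4% lower. On ND, 4 were higher and 13 lower, with 14.6% of all tested genes higher and 14.3% lower. The median log2 fold change of the hepatocyte-made members was 0.07 on KD and -0.20 on ND. Its signs turned on the deposited scale (-0.27 and 0.43) and, on KD, without KD nontumor 3 and 4 (-0.23). For the 3 C1q genes it was 0.78 on KD (0.31 without KD nontumor 3 and 4) and -0.23 on ND (0.40 on the deposited scale). The median level of the hepatocyte-made members, as log2(rescaled TPM + 1), averaged 7.67 ± 0.26 in KD tumors and 7.65 ± 0.21 in KD nontumor liver, and 7.38 ± 0.21 in ND tumors and 7.77 ± 0.23 in ND nontumor liver (SD, n = 4 each). The C1q median lay below it in every library, by 0.88 to 2.70 log2 units in KD tumors, 1.77 to 2.66 in KD nontumor liver, 0.92 to 2.00 in ND tumors and 1.66 to 1.83 in ND nontumor liver. These ranges overlap between tumor and nontumor on both diets, and no test was run on them because the members were chosen with results of these data known.

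Between the diets, 8 members differed in tumors and 0 in nontumor liver, and whether these counts differ was not tested. In KD tumors against ND tumors, 5 of 43 members were higher and 3 lower, with 16% of all tested genes called, 7.35% higher and 8.63% lower. The groups did not overlap for 12 members, 8 above and 4 below, with 23.1% of all tested genes, 12.5% above and 10.6% below. The median log2 fold change was 0.32 for the members and 0.03 for all tested genes. Of 10 hepatocyte markers all were positive, with a median of 0.71, and 1 passed; their summed level was 157800 to 219600 rescaled TPM in KD tumors, against 84740 to 149800 in ND tumors, with no overlap. Their part in the members' values was not tested. This comparison shares its tumor libraries with those above.

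Of the lectin pathway genes, Masp2 and Mbl2 were higher in KD tumors. Masp2 had 42.7, 42.4, 59.2 and 64.8 rescaled TPM in KD tumors, against 22.4, 32.5, 19.2 and 32.5 in ND tumors, with no overlap (0.96 ± 0.20; limma adjusted p = 0.00654). Mbl2 had 186, 246, 248 and 319 in KD tumors, against 124, 131, 43.95 and 75.5 in ND tumors (1.51 ± 0.41; limma adjusted p = 0.023), a call that was lost without KD tumor 3, KD tumor 4 or ND tumor 3. Mbl1 had a log2 fold change of 0.84 and did not pass (limma adjusted p = 0.115).

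Among coagulation genes, F2 had 437, 409.6, 431 and 379 rescaled TPM in KD tumors, against 184, 283, 189 and 227 in ND tumors (0.92 ± 0.28; limma adjusted p = 0.0367). F9 was higher by 0.73 ± 0.22 (limma adjusted p = 0.0315) and F13b by 0.63 ± 0.20 (limma adjusted p = 0.0451). These 3 calls depended on single libraries: that of F2 was lost without any 1 of the 4 KD tumors or without ND tumor 1, 3 or 4, that of F13b likewise, and that of F9 without KD tumor 2 or 4 or ND tumor 1, 3 or 4. F11 was lower in KD tumors, at 134, 78.7, 85.7 and 66.5 rescaled TPM, against 313, 258, 215 and 153 in ND tumors, with no overlap (-1.36 ± 0.23; limma adjusted p = 0.00221). C4b was also lower (-0.75 ± 0.20; limma adjusted p = 0.02), a call that was lost without KD tumor 3, KD tumor 4 or ND tumor 1. Cfp was lower too (-0.75 ± 0.22; limma adjusted p = 0.0323), a call that was lost without KD tumor 3 or 4 or ND tumor 1, 2 or 3. On the deposited scale 0 of the 8 calls stood, and all genes called numbered 113, against 2109 after rescaling. The median log2 fold change of all genes was -0.000675 there, against 0.0334. That fit takes 1 spread from all 16 libraries, ND nontumor 4 included, although this library is in neither tumor group. Its part in the lost calls was not tested.

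In KD nontumor liver against ND nontumor liver, 0 of 43 members passed in limma, and the count model on recovered reads also called 0. An unadjusted p under 0.05 in limma was found for 5 members, beside 1179 of all 13202 tested genes. Among all tested genes 0.0530% were called, 0.00757% higher and 0.0454% lower. The groups did not overlap for 4 members, 2 above and 2 below, with 6.04% of all tested genes, 3.23% above and 2.80% below: Masp2 and F11 were above, and C9 and Pros1 below, in KD nontumor liver. Masp2 had 78.3, 64.95, 70.5 and 73.2 rescaled TPM in KD nontumor liver, against 39.5, 56.1, 55.99 and 48.8 in ND nontumor liver (0.52 ± 0.20; limma adjusted p = 0.419). Differences of this size did not pass with the spread of 4 libraries a group.

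The tumor change itself differed between the diets for F11 alone among the 43 members, with 0.659% of all tested genes called, 0.235% higher and 0.424% lower. The change on KD minus that on ND was -1.79 ± 0.32 log2 units (limma adjusted p = 0.025). The call was lost without KD nontumor 4, KD tumor 2, 3 or 4, ND nontumor 2 or 3, or ND tumor 1, with a limma adjusted p of up to 0.0655, and on the deposited scale; without KD nontumor 3 and 4 together the change was -1.67 (limma adjusted p = 0.0835). By adjusted p C9 came next, at 1.39 ± 0.38 (limma adjusted p = 0.0908), chosen here after its values were seen. Mbl2, at 1.47 ± 0.58 (limma adjusted p = 0.202), and C8b, at 1.45 ± 0.61 (limma adjusted p = 0.225), had larger values and did not pass. The difference was positive for 33 of 43 members, beside 6677 of all 13202 tested genes. Its median was 0.43 for the members, against 0.01 for all tested genes. An unadjusted p under 0.05 in limma was found for 16 members, beside 2393 of all 13202 tested genes. The difference was positive for all 10 hepatocyte markers, with a median of 1.01, and their part in the members' values was not tested. On the deposited scale 24 members had the other sign.

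**Figure D4:**
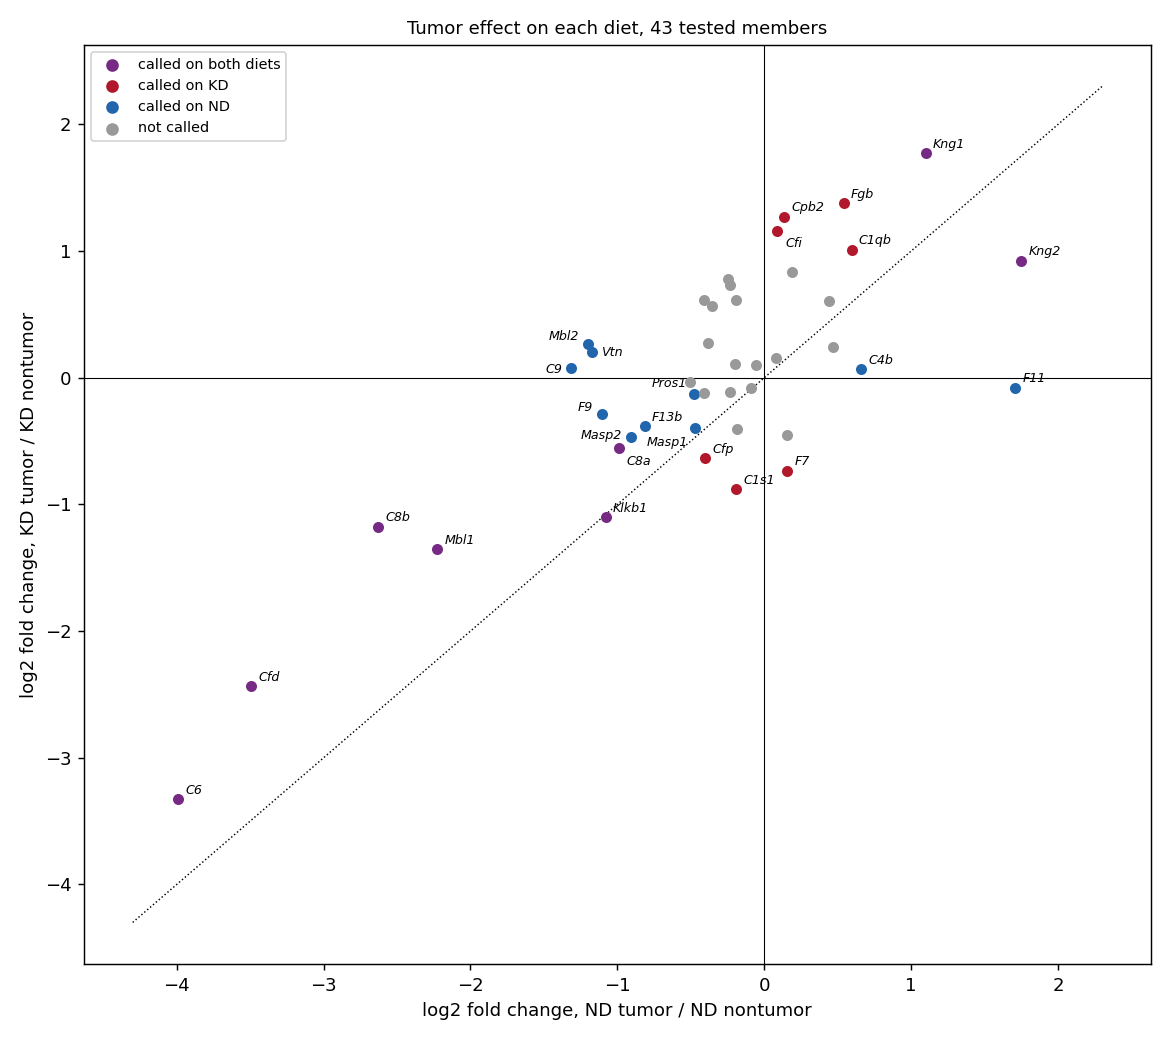
Log2 fold change of tumor against nontumor liver on KD (vertical) and on ND (horizontal) for the 43 tested genes; colours show on which diet limma's adjusted p was under 0.05 and the dotted line marks equal change. C6 lies lowest (-3.33 and -3.99), Kng1 and Kng2 are high on both axes, and F11 is high on ND (1.71) and near 0 on KD (-0.08).

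The wider pathway was examined through genes outside the 44. The lists of such genes were drawn up with results of these data known. Each count is to be read against the 33.0% of all tested genes called on KD (16.6% higher and 16.4% lower) and the 29.0% called on ND (14.6% higher and 14.3% lower). Of 9 tested complement recognition proteins and proteases, 6 fell on KD and 6 on ND and 0 rose; without KD nontumor 3 and 4, 5 fell on KD, and on the deposited scale 5 fell on KD and 4 on ND. Colec10, a collectin of the lectin pathway, fell, with log2 fold changes of -1.57 ± 0.28 on KD (limma adjusted p = 5.74e-04) and -2.94 ± 0.28 on ND (limma adjusted p = 1.83e-06), and Colec11, another collectin, likewise, with -1.19 ± 0.33 on KD (limma adjusted p = 0.0117) and -1.34 ± 0.33 on ND (limma adjusted p = 0.00627). Fcna, a ficolin made by macrophages, fell, with log2 fold changes of -1.61 ± 0.44 on KD (limma adjusted p = 0.0103) and -2.92 ± 0.44 on ND (limma adjusted p = 1.32e-04). C7, the component that acts after C6, is counted among the falls on both diets but exceeded 1 rescaled TPM in the nontumor libraries alone and so entered the test through them; its levels are given as a description. It was at 0.241 ± 0.198 rescaled TPM in KD tumors and 2.61 ± 1.44 in KD nontumor liver, and 0.261 ± 0.372 in ND tumors and 3.49 ± 1.09 in ND nontumor liver (SD, n = 4 each).

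Of 8 tested complement regulators, 3 fell and 0 rose on KD, with or without KD nontumor 3 and 4, and 5 fell and 1 rose on ND; on the deposited scale 2 fell and 0 rose on either diet. Susd4, a membrane inhibitor of complement, fell, with log2 fold changes of -2.93 ± 0.26 on KD (limma adjusted p = 1.55e-06) and -2.71 ± 0.26 on ND (limma adjusted p = 1.87e-06). Cd59a, which blocks the membrane attack complex on host cells, fell, with log2 fold changes of -1.08 ± 0.23 on KD (limma adjusted p = 0.00226) and -0.94 ± 0.23 on ND (limma adjusted p = 0.00611). Cd55, which dissociates convertases, fell on ND (-1.75 ± 0.28; limma adjusted p = 2.45e-04) and was higher in KD than in ND tumors (1.38 ± 0.28; limma adjusted p = 0.00594). Of 10 tested complement receptors, 2 rose and 2 fell on KD, and 3 rose and 2 fell on ND; without KD nontumor 3 and 4, 0 rose and 1 fell on KD, and on the deposited scale 0 rose and 1 fell on KD and 2 rose and 1 fell on ND. Vsig4, a receptor for C3 fragments on Kupffer cells, fell, with log2 fold changes of -1.61 ± 0.46 on KD (limma adjusted p = 0.0129; not without KD nontumor 3 and 4) and -2.90 ± 0.46 on ND (limma adjusted p = 2.08e-04). Cd93, an endothelial and myeloid receptor once described as binding C1q, rose by 1.01 ± 0.31 on KD (limma adjusted p = 0.0198; not without KD nontumor 3 and 4) and 2.34 ± 0.31 on ND (limma adjusted p = 4.20e-05).

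Of 11 tested inhibitors of coagulation and fibrinolysis, 3 rose and 0 fell on KD, and 4 rose and 3 fell on ND; without KD nontumor 3 and 4, 2 rose on KD, and on the deposited scale 0 rose on KD and 2 on ND. Serpina10, the protein Z dependent inhibitor of factor Xa, rose by 1.21 ± 0.19 on KD (limma adjusted p = 2.31e-04) and 1.06 ± 0.19 on ND (limma adjusted p = 6.33e-04). Serpinf2, which encodes the plasmin inhibitor antiplasmin, rose on KD (1.11 ± 0.23; limma adjusted p = 0.00197). Serpinc1, which encodes antithrombin, fell on ND (-1.24 ± 0.27; limma adjusted p = 0.00261). A2m, a broad protease inhibitor, is counted among the rises on ND but entered the test through the ND tumors, where it was high. As a description, it was at 0.586 ± 0.555 rescaled TPM in KD tumors and 0.130 ± 0.177 in KD nontumor liver, and 6.77 ± 4.87 in ND tumors and 0.106 ± 0.158 in ND nontumor liver (SD, n = 4 each).

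Of 8 tested fibrinolysis genes, 3 rose and 1 fell on KD, and 4 rose and 1 fell on ND; without KD nontumor 3 and 4, 0 rose and 1 fell on KD, and on the deposited scale 1 rose on KD and 5 on ND and 0 fell. Plat, which encodes tissue plasminogen activator, rose by 1.89 ± 0.49 on KD (limma adjusted p = 0.0077; not without KD nontumor 3 and 4) and 1.50 ± 0.49 on ND (limma adjusted p = 0.0311). Hgfac, a protease activated by thrombin, rose by 0.79 ± 0.26 on KD (limma adjusted p = 0.0299; not without KD nontumor 3 and 4) and 1.85 ± 0.26 on ND (limma adjusted p = 8.14e-05). Of 4 tested coagulation factors and receptors made mainly outside hepatocytes, 2 rose on KD (1 without KD nontumor 3 and 4), and 1 rose and 1 fell on ND; on the deposited scale 1 rose on each diet. F2rl1, a protease-activated receptor, rose by 1.51 ± 0.32 on KD (limma adjusted p = 0.00185) and 2.21 ± 0.32 on ND (limma adjusted p = 8.33e-05). Of 8 genes of the vitamin K cycle and of factor export, 2 rose on KD and 1 on ND and 0 fell, with 0 on KD without KD nontumor 3 and 4 and 0 on either diet on the deposited scale. Ggcx, the carboxylase itself, was at 32.00 ± 6.86 rescaled TPM in KD tumors and 36.02 ± 2.50 in KD nontumor liver, and 31.8 ± 4.92 in ND tumors and 33.4 ± 5.63 in ND nontumor liver (SD, n = 4 each), and did not pass. Mcfd2, a cargo receptor subunit that exports factors V and VIII, rose in KD tumors (0.91 ± 0.22; limma adjusted p = 0.00477; not without KD nontumor 3 and 4) and was higher there than in ND tumors (0.90 ± 0.22; limma adjusted p = 0.0137).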

How the data were processed

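The deposited table gives TPM for 20601 genes in 16 columns, 1 per library. FastQC, HISAT2, SAMtools, featureCounts and the build mm10 are named in the submitters' processing notes; versions, the annotation, strandedness and the step to TPM are not given in the sources used here. Nontumor columns carry the letter P where sample titles carry N and were matched by diet and number.

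TPM were divided by median-of-ratios factors over 12119 genes above 0 in all 16 libraries (0.128 for ND nontumor 4, 0.937 to 1.52 for the others). Genes with at least 1 rescaled TPM in at least 4 libraries were tested with limma 3.58.1 (R 4.3.3) on log2(rescaled TPM + 1), which understates changes of low genes, with a variance trend, 4 group means and no block; p-values were Benjamini-Hochberg adjusted over 13202 genes. Whole reads were recovered from the steps of the TPM values (20601 of 20601 genes, within 0.001 reads) and gave depth and a count model (limma's voom with median-of-ratios factors). No pair of libraries was a copy.

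Same-numbered tumor and nontumor libraries did not deviate together (r -0.115 to 0.164), so numbers were not used as pairs. Alternatives were the deposited scale, a pseudocount of 0.1, no filter, only the groups compared, a replicate block, library weights and each library left out; leaving out KD nontumor 3 and 4 and voom were added after the data were seen. The members and lists were chosen with earlier results of these data known. All 44 members could be named; of the other lists, up to 6 genes with the largest changes among those past the threshold in a comparison, and any defining marker; C4a, Ggcx and Hnf4a were named after their values were seen. Some genes of these lists are not reported here by name. Positions came from GENCODE M21 (GRCm38, the mm10 build), upstream sequences from RefSeq (GRCm38.p6).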

Additional observations from a re-analysis of the deposited data

Results flagged for a closer look

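Among 172 sets of 4 libraries (43 genes in 4 groups), 8 had 1 library far from the other 3, by Dixon's criterion, which flags about 1 in 20 sets by chance. The single library was the lowest of its group for C1qb in KD tumor 4 (51.3 rescaled TPM), C9 in KD tumor 1 (92.3) and C6 in ND nontumor 4 (102). It was the highest of its group for C1qc in ND tumor 1 (41.7), C4b in ND tumor 1 (1243), F9 in ND tumor 2 (49.99), F3 in KD nontumor 3 (9.15) and F13b in ND nontumor 2 (49.5). ND tumor 1 was thus the highest of its group for both C1qc and C4b.

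The tumor change differed between the diets, by the interaction term of the limma fit, for F11 (-1.79; adjusted p = 0.0250) among the members and for 4 genes of the lists around them. These were Aifm2, which encodes a reductase that can reduce vitamin K (-0.90; limma adjusted p = 0.0345), the Kupffer cell marker Cd5l (2.77; limma adjusted p = 0.0382) and the sinusoidal endothelial markers Stab2 (1.44; limma adjusted p = 0.0482) and Clec4g (2.15; limma adjusted p = 0.0435). A positive value means that the change in tumors against nontumor liver was higher on KD than on ND.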

How the results depend on the processing

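The scale mattered most, in a fit where ND nontumor 4 also enters the spread of comparisons it is not part of. On TPM as deposited the median log2 fold change of all genes was -0.26 for KD tumor against KD nontumor, 0.42 for ND tumor against ND nontumor, -0.00068 for KD tumor against ND tumor, 0.69 for KD nontumor against ND nontumor and -0.67 for the interaction, against 0.01, -0.005, 0.03, 0.005 and 0.006 after rescaling. Members called were 2, 5, 0, 0 and 0 in that order, against 15, 18, 8, 0 and 1. All genes called were 1111, 1418, 113, 65 and 14 (34.8%, 77.2%, 34.5%, 92.3% and 14.3% of them higher), against 4361, 3823, 2109, 7 and 87 (50.2%, 50.5%, 46.0%, 14.3% and 35.6%). The hepatocyte-made median was then -0.27, 0.43, 0.84 and -0.52 (KD, ND, nontumor diets and interaction), and the C1q median 0.40 (ND), 0.35 (nontumor diets) and -0.00083 (interaction). Masp1 and Pros1 turned from lower to higher in ND tumors (0.12 and 0.085; limma adjusted p = 0.926 and 0.948). Without KD nontumor 3 and 4, 5 members were called on KD and 0 in the interaction, all genes called on KD numbered 1966, and for KD nontumor against ND nontumor 89; the hepatocyte-made median on KD was -0.23, and the C1q median 0.31 on KD, 0.029 between nontumor diets and 0.30 in the interaction. Library weights called 1 member between nontumor diets and 2 in the interaction (465 and 403 of all genes). The interaction called 57 genes with a pseudocount of 0.1 and 32 with no filter, and the nontumor diets 4 with that pseudocount and 3 with only the groups compared. With 1 library left out, members called ranged over 9 to 18 (KD), 13 to 18 (ND), 3 to 8 (tumor diets), 0 to 0 (nontumor diets) and 0 to 2 (interaction). All genes called between tumor diets numbered 1053, 1122 and 1167 without KD tumor 3, KD tumor 4 and ND tumor 1, and those between nontumor diets 12 without KD nontumor 4; those of the interaction ranged over 9 (without ND nontumor 2) to 157 (without ND nontumor 4), and were 18 without KD nontumor 3 and 4. The replicate block (correlation -0.0215) called 15, 18, 8, 0 and 1 members and changed 0 of 215 results for members. This correlation cannot decide whether equal numbers mark 1 mouse. Voom called 14, 18, 10, 0 and 1. The cause of these shifts was not tested. At 4 libraries a group and 3518966 reads in ND nontumor 4, small changes of low genes such as F3 are the least certain. Cfd, also a low gene, had large changes with a wide spread (SE 0.82 on KD and on ND).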

Other observations

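Other plasma proteins of hepatocytes were set beside the 44 genes. Of 13 acute phase genes that rise in inflammation, 8 rose and 1 fell in KD tumors, and 4 rose and 1 fell in ND tumors, with 33.0% and 29.0% of all tested genes called; without KD nontumor 3 and 4, 5 rose and 1 fell on KD, and on the deposited scale 3 rose and 1 fell on KD and 4 rose and 1 fell on ND. Lcn2, an iron-siderophore binding protein, rose by 5.99 ± 0.87 log2 units on KD (limma adjusted p = 1.23e-04) and 6.09 ± 0.87 on ND (limma adjusted p = 8.67e-05). Apcs, the serum amyloid P component, rose by 2.89 ± 0.43 on KD (limma adjusted p = 1.35e-04) and 1.54 ± 0.43 on ND (limma adjusted p = 0.0124). Hamp, which encodes the iron hormone hepcidin, fell, with log2 fold changes of -4.11 ± 0.87 on KD (limma adjusted p = 0.00202) and -3.60 ± 0.87 on ND (limma adjusted p = 0.00525). Of 10 other plasma protein genes, 5 rose on KD (2 without KD nontumor 3 and 4) and 2 rose and 1 fell on ND, with 1 rising on each diet on the deposited scale. Most of these 10 genes are also among the hepatocyte markers used above, so this is not a separate observation. Trf, which encodes transferrin, rose by 2.88 ± 0.49 on KD (limma adjusted p = 4.46e-04) and 2.29 ± 0.49 on ND (limma adjusted p = 0.00246).

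Of 15 hepatocyte transcription factors and interleukin-6 signalling genes, 8 fell and 1 rose on KD, and 9 fell and 1 rose on ND, with 16.4% of all tested genes lower on KD and 14.3% on ND; without KD nontumor 3 and 4, 6 fell on KD, and on the deposited scale 5 fell on KD and 1 on ND. Nr1i3, the constitutive androstane receptor, fell, with log2 fold changes of -3.46 ± 0.27 on KD (limma adjusted p = 4.41e-07) and -2.56 ± 0.27 on ND (limma adjusted p = 5.61e-06). Foxa3 rose on ND (1.14 ± 0.19; limma adjusted p = 3.67e-04). Hnf4a had 254 ± 18.2 rescaled TPM in KD tumors and 269 ± 20.8 in KD nontumor liver, and 274 ± 62.5 in ND tumors and 293 ± 41.8 in ND nontumor liver, and did not pass. Il6ra, the interleukin-6 receptor, fell on KD (-1.42 ± 0.22; limma adjusted p = 2.31e-04).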
